A study of Mus musculus with 14 samples.

Results

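The nuclear-encoded subunits of the mitochondrial respiratory chain were followed by complex in caudal intervertebral discs (IVDs) of the 2 mouse models of type 2 diabetes. Members were the genes annotated as protein-coding whose symbols name a subunit of NADH dehydrogenase (Ndufa, Ndufb, Ndufc, Ndufs and Ndufv), succinate dehydrogenase (Sdha to Sdhd), the cytochrome bc1 complex (Uqcr genes and *Cyc1*), cytochrome c oxidase (Cox4 to Cox8), ATP synthase (Atp5 genes) or cytochrome c (*Cycs*). This gave 89 of the 55487 genes in the count table. Complex I had 36 members, complex II 4, complex III 9, complex IV 21 and complex V 18, and *Cycs* stood apart. *Ndufa4* and *Ndufa4l2* carry complex I symbols but were counted with complex IV, where the Ndufa4 protein sits, and *Cox7a2l*, a factor that joins complexes III and IV, was counted there by its symbol. Of the 89 members, 85 passed the filter on low counts (a CPM above 1 in at least 3 libraries, where CPM is the count scaled to a common library size with TMM factors) and were tested. The 4 others were *Cox6b2*, *Cox7b2*, *Cox8c* and a further identifier of *Atp5o*.

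RNA came from 5 pooled caudal discs of each mouse. Male db/db mice, homozygous for a mutant leptin receptor, (n=3) were compared with heterozygous db/+ mice (n=3), all 12 weeks old. STZ-HFD mice (n=4) received a high-fat diet for 4 to 6 weeks, a single injection of 100 mg/kg streptozotocin, a toxin of insulin-producing beta cells, and the same diet for 12 more weeks. Their Con+Veh controls (n=4), labelled wild type, were fed chow and injected with buffer, and both of these groups are labelled C57BL/6J. The methods give the mice of these groups as male and 12 weeks old. If that is their age at the start of the diet, they were older at harvest than the db mice. All 4 groups share the tail level, the pooling and a single batch label. Cohort and model cannot be told apart, so each model was set against its own control.

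The respiratory chain transfers electrons from NADH (complex I) and succinate (complex II) through ubiquinone to complex III, cytochrome c and complex IV, and complex V uses the resulting proton gradient to make ATP. Most subunits are encoded in the nucleus and expressed in every cell with mitochondria, whereas complexes I, III, IV and V also contain subunits from the mitochondrial genome. Several small subunits of complex IV exist as paired isoforms. *Cox6a2*, *Cox7a1* and *Cox8b* are the forms of heart and skeletal muscle (*Cox7a1* and *Cox8b* also of brown fat), and *Cox6a1*, *Cox7a2* and *Cox8a* are their ubiquitous counterparts. Cells of the adult disc live far from blood vessels and rely largely on glycolysis, while skeletal muscle fibers are rich in mitochondria.

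Libraries held 16076908 to 58943169 counts, of which 1 ribosomal RNA gene, CT010467.1, took 21.6% to 48.2%. All ribosomal RNA genes together took 28.1% to 39.7% in the db cohort and 44.4% to 60.2% in the STZ-HFD cohort, without overlap. A count of 3 in these libraries is worth 0.0509 to 0.187 CPM by the total alone, a floor that covers counting error only. Counts of *Lepr*, the gene mutated in db/db mice, ranged from 309 to 534 in db/db and from 374 to 472 in db/+ libraries; the mutation alters splicing, and a total over the gene does not check the labels. Disc and cartilage markers (*Acan*, *Col2a1*, *Sox9*, *Col9a1*, *Matn3*) were present in every library, with summed levels of 4588 to 22516 CPM in the db cohort and 461 to 2749.6 CPM in the STZ-HFD cohort. Skeletal muscle markers were also present in every library, with all 13 genes of that list tested. Because these are bulk samples, fewer cells of a type and less RNA per cell cannot be told apart.

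In STZ-HFD IVDs, some subunits of each of the 5 complexes were called higher than in Con+Veh IVDs. A member was called when limma gave it a Benjamini-Hochberg adjusted p under 0.05 together with a log2 fold change of at least 1 in either direction. By this rule 15 of 85 members were called higher and 1 lower, against 1.3% of the 16915 genes tested called higher and 1.31% called lower. By the adjusted p alone, 21 were higher and 1 lower, against 1.65% and 1.8% of all genes. The log2 fold change was above 0 for 77 of 85 members, with a median of 0.81, while 47.2% of all genes were above 0 and their median was -0.04. The calls depended on the test, since edgeR's quasi-likelihood test called 0 of 85 higher (37 at an unadjusted p under 0.05, and 0.0591% of all genes called) and DESeq2 6. In db/db IVDs, 3 of 85 members were called higher than in db/+ (background 1.23% of all genes) and 0 lower (background 0.432%). At an unadjusted limma p under 0.05, 7 were lower and 21 higher. Over all 16915 genes, 3572 had such a p in db/db and 3025 in STZ-HFD, both directions together. The counts at an unadjusted limma p given below by complex share this background. The 3 called members were *Cox6c*, *Cox7a2l* and *Atp5l*, and edgeR's quasi-likelihood test called 0 (15 higher at an unadjusted p under 0.05). The median log2 fold change was 0.27 over the members, of which 58 of 85 were above 0, and -0.04 over all genes, of which 47.3% were above 0.

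**Figure D1:**
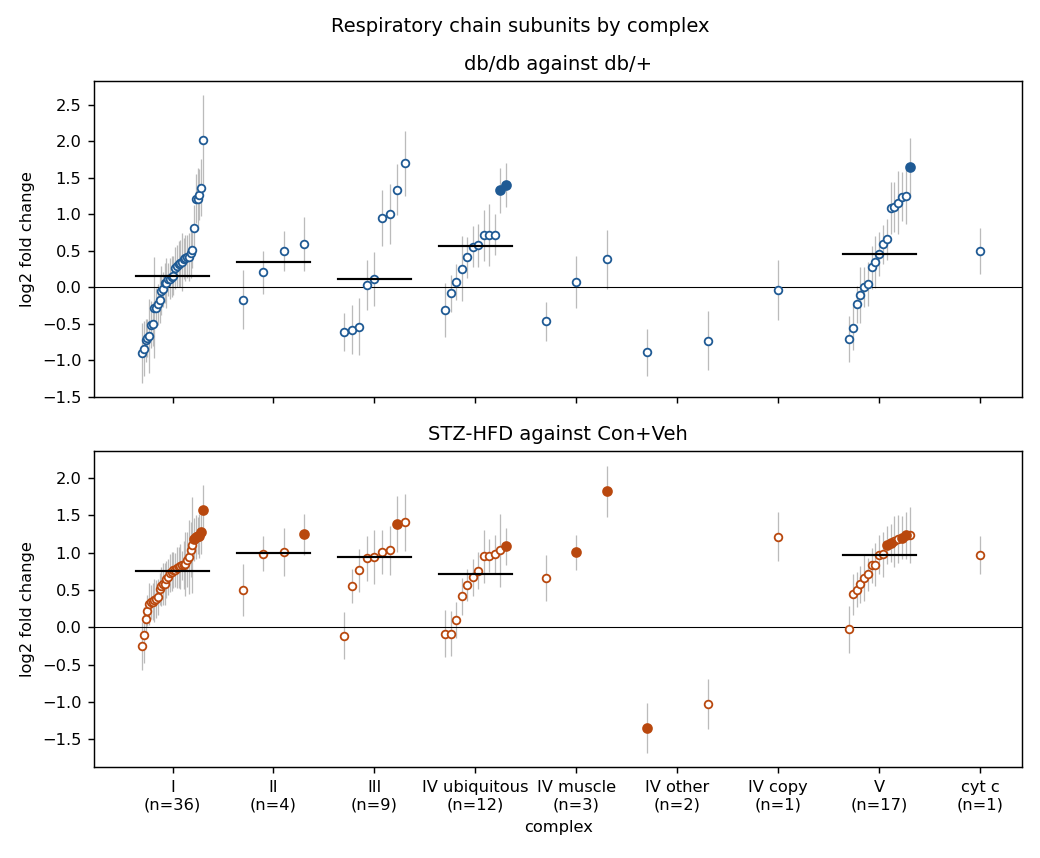
Log2 fold change of the 85 tested members (points, with the standard error) by complex, db/db against db/+ above and STZ-HFD against Con+Veh below; filled points were called and black lines are medians of classes with at least 4 members. In the STZ-HFD model the medians of complexes I, II, III, ubiquitous IV and V lie between 0.71 and 0.99, and in the db/db model between 0.11 and 0.57.

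The level of the ubiquitous subunits was summed within each complex and library. For complex I, Con+Veh libraries summed to 789, 1445, 1261 and 1435 CPM and STZ-HFD libraries to 1347, 1756, 2426 and 2144 CPM. For complex V, the sums were 582, 1826, 1019 and 1189.5 CPM in Con+Veh and 1642, 1388, 2992 and 2244 CPM in STZ-HFD. The groups overlapped in both sums: Con+Veh replicate 1 was the lowest library in each of the 5 complexes, and Con+Veh replicate 2 lay above at least 1 STZ-HFD library in all 5. In the db cohort, complex V summed to 719, 872 and 530.1 CPM in db/+ and 1212, 882 and 1078 CPM in db/db, so every db/db library was higher, if narrowly. Ubiquitous complex IV summed to 409, 431 and 288 CPM in db/+ and 618, 458 and 616 CPM in db/db, again higher in every db/db library than in any db/+ library. The complex I sums overlapped, at 851, 942 and 597 CPM in db/+ and 959, 704 and 830.1 CPM in db/db. These sums are descriptions and were not tested.

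**Figure D2:**
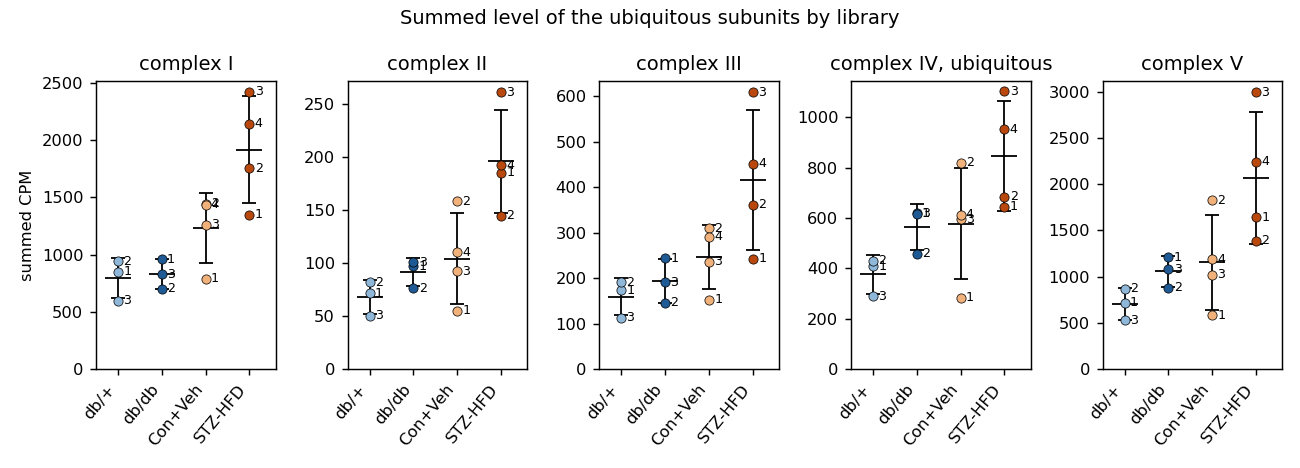
Summed CPM of the ubiquitous subunits of each complex in each library (points, numbered by replicate), with the group mean and SD (bars). Con+Veh replicates 1 and 2 lie far apart in every complex, and the STZ-HFD group mean is the highest of the 4 groups in each.

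Complex I accepts electrons from NADH. In STZ-HFD IVDs, 6 of its 36 members were called higher and 0 lower, 34 had a log2 fold change above 0 and the median was 0.75. At an unadjusted limma p under 0.05, 21 were higher and 0 lower. Of those called, 5 were supernumerary subunits, which surround the core. *Ndufa13* (ENSMUSG00000036199, chromosome 8 from 69894180 to 69902558 of GRCm38) had 27.01, 85.1, 42.7 and 68.5 CPM in Con+Veh and 88.7, 102, 161 and 115 CPM in STZ-HFD, with every treated library above every control (log2 fold change 1.27 ± 0.29, SE, limma adjusted p = 0.0231). *Ndufb5*, a subunit of the membrane arm, had 12.8, 77.9, 20.5 and 26.6 CPM in Con+Veh and 66.4, 30.8, 107 and 75.5 CPM in STZ-HFD, the highest log2 fold change of the complex at 1.57 ± 0.34 (limma adjusted p = 0.0208). Here Con+Veh replicate 2 lay above STZ-HFD replicates 1, 2 and 4, so the groups overlapped. *Ndufc1* (log2 fold change 1.23 ± 0.30), *Ndufb2* (1.18 ± 0.29) and *Ndufb8* (1.21 ± 0.30) were called with overlapping groups too. *Ndufv3* lay at the other end, with 147, 104, 212 and 193 CPM in Con+Veh, 67.0, 186, 114 and 268 CPM in STZ-HFD and a log2 fold change of -0.25 ± 0.32 (limma adjusted p = 0.738).

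In db/db IVDs, 0 of 36 complex I members were called in either direction by limma, while 6 had an unadjusted p under 0.05 in the higher direction and 4 in the lower. The median was 0.15 and 23 members lay above 0. *Ndufb1-ps*, which the count table annotates as protein-coding, had 1.17, 0.835 and 0.746 CPM in db/+ and 6.36, 2.58 and 3.03 CPM in db/db, the highest log2 fold change of the complex at 2.02 ± 0.61 (limma adjusted p = 0.0819). It is a gene of low level that overlaps *Cpsf2* on the opposite strand, and the sources used here do not say whether counting used the strand. *Ndufs5* was lowest, with 4.66, 5.11 and 2.92 CPM in db/+ and 1.86, 1.89 and 3.22 CPM in db/db and overlapping groups (log2 fold change -0.89 ± 0.41, limma adjusted p = 0.224). *Ndufb5* was separated between the db groups, at 12.4, 13.5 and 10.9 CPM against 43.6, 25.5 and 29.2 CPM, but did not pass the test (1.36 ± 0.39, limma adjusted p = 0.0732).

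Complex II, succinate dehydrogenase, also serves the citric acid cycle and is wholly nuclear-encoded. In STZ-HFD IVDs, 1 of its 4 members was called higher and all 4 lay above 0, with a median of 0.99. *Sdhc* (ENSMUSG00000058076, chromosome 1 from 171127165 to 171150603), which anchors the enzyme in the membrane, had 11.9, 24.7, 15.2 and 18.5 CPM in Con+Veh and 107, 24.9, 40.9 and 37.1 CPM in STZ-HFD, so the groups did not overlap, by a narrow margin (log2 fold change 1.24 ± 0.27, limma adjusted p = 0.0208). STZ-HFD replicate 1 stood far above the other 3 treated libraries. *Sdha*, the flavoprotein, had an adjusted p of 0.0313 in limma but a log2 fold change just under the minimum (0.98 ± 0.24), and its catalytic partner *Sdhb* had 1.00 ± 0.32 (limma adjusted p = 0.0934). The other anchor, *Sdhd*, had the lowest log2 fold change of the complex, 0.50 ± 0.34 (limma adjusted p = 0.486). In db/db IVDs, 0 of 4 members were called by limma or had an unadjusted p under 0.05, from -0.17 ± 0.40 for *Sdhd* to 0.60 ± 0.37 for *Sdhb*.

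Complex III passes electrons from ubiquinol to cytochrome c. In STZ-HFD IVDs, 1 of its 9 members was called higher, *Uqcrfs1* (log2 fold change 1.38 ± 0.37, limma adjusted p = 0.0496), the Rieske iron-sulfur protein, and 8 lay above 0, with a median of 0.94. The groups of *Uqcrfs1* overlapped, with 26.4 CPM in Con+Veh replicate 2 against 21.2 and 9.01 CPM in STZ-HFD replicates 1 and 2. *Uqcrb*, a small subunit at the ubiquinone site, had the highest value, 1.41 ± 0.38, and missed the threshold (limma adjusted p = 0.0505). It had 5.62, 26.2, 9.26 and 8.36 CPM in Con+Veh and 21.5, 11.5, 40.8 and 25.4 CPM in STZ-HFD, where Con+Veh replicate 2 lay above 3 of the 4 treated libraries. *Uqcrc2*, a core protein without a redox group, had the lowest, -0.11 ± 0.31 (limma adjusted p = 0.891). In db/db IVDs the same *Uqcrb* had 6.63, 3.32 and 3.3 CPM in db/+ and 20.9, 9.5 and 12.2 CPM in db/db, which do not overlap, with a log2 fold change of 1.70 ± 0.44 (limma adjusted p = 0.0554). *Uqcr11* was lowest there, at -0.62 ± 0.26, and 0 of the 9 members were called by limma, although 4 had an unadjusted p under 0.05 in the higher direction and 1 in the lower.

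Cytochrome c itself, *Cycs*, had 9.21, 8.98, 5.97 and 6.9 CPM in Con+Veh and 11.3, 8.94, 16.0 and 13.4 CPM in STZ-HFD, with overlapping groups. Its log2 fold change of 0.97 ± 0.25 stayed just under the minimum while its limma adjusted p was 0.0444. In the db cohort it was 0.50 ± 0.32 (limma adjusted p = 0.38).

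Complex V makes ATP. In STZ-HFD IVDs, 4 of its 17 tested members were called higher and 16 lay above 0, with a median of 0.97. Of these, *Atp5a1* is the alpha subunit of the F1 head, *Atp5g1* and *Atp5g3* encode the same subunit of the rotating ring, and *Atp5pb* belongs to the stator stalk. *Atp5a1* had 78.2, 289.9, 125 and 136 CPM in Con+Veh and 215, 173, 328 and 346 CPM in STZ-HFD (log2 fold change 1.10 ± 0.26, limma adjusted p = 0.0276). *Atp5g1* (ENSMUSG00000006057, chromosome 11 from 96068852 to 96075670) had 39.9, 82.8, 49.2 and 68.9 CPM and 75.6, 99.7, 184 and 104 CPM in the same order (1.12 ± 0.25, limma adjusted p = 0.0228). In both genes Con+Veh replicate 2 lay above the lowest treated library. The third gene of the ring, *Atp5g2*, was listed at 5.49, 4.55, 3.57 and 4.83 CPM in Con+Veh and 2.01, 2.44, 3.91 and 5.95 CPM in STZ-HFD (log2 fold change -0.03 ± 0.32, limma adjusted p = 0.979). *Atp5pb* was called at 1.2 ± 0.29 and *Atp5g3* at 1.23 ± 0.31, although for both Con+Veh replicate 2 lay above STZ-HFD replicates 1, 2 and 4. *Atp5e*, the epsilon subunit of F1, had 1.24 ± 0.37 and did not pass (limma adjusted p = 0.0772).

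In db/db IVDs, 1 of 17 complex V members was called, *Atp5l* (ENSMUSG00000038717, chromosome 9 from 44912557 to 44920742), a small subunit of the membrane part. It had 30.7, 24.7 and 31.5 CPM in db/+ and 120.2, 76.7 and 77.2 CPM in db/db, with every db/db library above every db/+ library (log2 fold change 1.64 ± 0.41, limma adjusted p = 0.047). Its count is uncertain, because the annotation holds 13 pseudogenes with at least 90% identity to it over at least 200 bases, and they received 27.5% of the counts of gene and copies together. *Atp5g2* was the lowest member, with 3.47, 4.75 and 3.16 CPM in db/+ and 2.55, 1.97 and 2.53 CPM in db/db, which do not overlap, and a log2 fold change of -0.71 ± 0.31 (limma adjusted p = 0.207). Over complex V, 13 of 17 lay above 0, with a median of 0.46.

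The ubiquitous subunits of complex IV, the oxygen-consuming end of the chain, gave 1 of 12 members called higher in STZ-HFD IVDs, with a median of 0.71 and 10 above 0. This was *Cox7c* (ENSMUSG00000017778, chromosome 13 from 86044816 to 86046904), with 11.5, 26.6, 17.8 and 14.5 CPM in Con+Veh and 28.1, 19.2, 44.5 and 41.3 CPM in STZ-HFD and overlapping groups (log2 fold change 1.08 ± 0.25, limma adjusted p = 0.0237). *Cox4i1*, the main form of the subunit through which ATP regulates the enzyme, had 27.3, 59.7, 65.1 and 61.1 CPM in Con+Veh and 90.6, 77.2, 107 and 80.8 CPM in STZ-HFD. Its groups did not overlap, but its log2 fold change was 0.57 ± 0.21 and did not pass (limma adjusted p = 0.155). *Ndufa4* had 0.95 ± 0.36 (limma adjusted p = 0.167).

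In db/db IVDs, 2 of the 12 were called. *Cox7a2l* (ENSMUSG00000024248, chromosome 17 from 83501918 to 83517330) had 56.5, 50.9 and 51.4 CPM in db/+ and 156, 119 and 146 CPM in db/db, and *Cox6c* (ENSMUSG00000014313, chromosome 15 from 35925886 to 35938246), a small subunit around the core, had 34.5, 26.8 and 27.6 CPM and 101.1, 60.2 and 66.5 CPM in the same order. In both, the lowest db/db library was clearly above the highest db/+ library. The log2 fold changes were 1.40 ± 0.30 (limma adjusted p = 0.0314) and 1.33 ± 0.31 (limma adjusted p = 0.0373). *Cox6c* overlaps *Vps13b* on the opposite strand. In the STZ-HFD model *Cox7a2l* had 0.41 ± 0.25 and *Cox6c* 0.98 ± 0.26, the latter with an adjusted p of 0.0492 in limma and a fold change under the minimum. *Cox4i1* had a log2 fold change of 0.07 ± 0.25 and *Ndufa4* of 0.72 ± 0.42 in db/db, neither of which passed (limma adjusted p = 0.902 and 0.339).

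Of the 3 muscle isoforms of complex IV, all on chromosome 7, 2 were called higher in STZ-HFD IVDs, and both separated the groups completely. *Cox8b* (ENSMUSG00000025488, chromosome 7 from 140898945 to 140900446) had 17.4, 41.5, 21.1 and 36.9 CPM in Con+Veh and 52.5, 60.5, 149 and 82.4 CPM in STZ-HFD, the highest log2 fold change of all 85 members at 1.82 ± 0.34 (limma adjusted p = 0.0109). *Cox7a1* (ENSMUSG00000074218, chromosome 7 from 30184144 to 30186078) had 34.6, 84.6, 83.5 and 82.7 CPM in Con+Veh and 197, 140.4, 141 and 184 CPM in STZ-HFD (log2 fold change 1.00 ± 0.24, limma adjusted p = 0.0281). The lowest treated library lay well above the highest control for *Cox7a1* and by a smaller margin for *Cox8b*. *Cox6a2* (ENSMUSG00000030785, chromosome 7 from 128205435 to 128206387) had 243, 228, 198 and 308 CPM in Con+Veh and 103, 313, 451 and 454 CPM in STZ-HFD, and did not pass the test (0.66 ± 0.31, limma adjusted p = 0.272). STZ-HFD replicate 1 was below all 4 controls for this gene, while the other 3 treated libraries were above them.

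Their ubiquitous partners were not called, and their log2 fold changes lay near 0. *Cox8a* had 8.88, 41.4, 21.7 and 18.0 CPM in Con+Veh and 6.91, 12.3, 21.99 and 27.1 CPM in STZ-HFD (log2 fold change -0.08 ± 0.32, limma adjusted p = 0.922). *Cox7a2* had 33.8, 46.3, 42.8 and 38.6 CPM and 17.7, 38.2, 49.2 and 53.4 CPM (0.10 ± 0.24, limma adjusted p = 0.865). *Cox6a1* had 26.4, 47.4, 80.9 and 97.2 CPM and 36.8, 119, 82.7 and 62.7 CPM (-0.08 ± 0.30, limma adjusted p = 0.917). The groups overlapped in all 3, and the sign of the log2 fold change changed with the test for *Cox6a1* and *Cox7a2*.

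The promoters of the 2 called muscle isoforms are shown beside those of their ubiquitous counterparts, because each pair encodes the same subunit. Sequences are from RefSeq on GRCm38.p6, 250 bases before to 50 after the start, written 5′ to 3′ on the gene's strand: *Cox7a1* at chr7:30183921-30184220, plus strand, *Cox7a2* at chr9:79759804-79760103, minus strand, *Cox8b* at chr7:140900397-140900696, minus strand, and *Cox8a* at chr19:7217567-7217866, minus strand. Capitals mark E-boxes (CANNTG), letters that muscle regulatory factors bind among others, and the ETS core (CCGGAAG), letters bound by factors such as GABP, on either strand.
Cox7a1: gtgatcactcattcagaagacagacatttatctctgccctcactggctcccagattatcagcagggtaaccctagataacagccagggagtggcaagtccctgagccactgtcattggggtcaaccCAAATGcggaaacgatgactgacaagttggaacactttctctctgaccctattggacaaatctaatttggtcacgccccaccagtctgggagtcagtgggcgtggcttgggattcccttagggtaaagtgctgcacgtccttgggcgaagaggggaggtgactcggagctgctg
Cox7a2: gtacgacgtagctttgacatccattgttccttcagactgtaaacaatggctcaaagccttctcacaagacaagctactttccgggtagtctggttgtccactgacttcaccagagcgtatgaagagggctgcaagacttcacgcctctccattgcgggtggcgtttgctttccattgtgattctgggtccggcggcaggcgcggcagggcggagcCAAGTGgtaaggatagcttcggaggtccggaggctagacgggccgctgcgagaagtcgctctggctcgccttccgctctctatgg
Cox8b: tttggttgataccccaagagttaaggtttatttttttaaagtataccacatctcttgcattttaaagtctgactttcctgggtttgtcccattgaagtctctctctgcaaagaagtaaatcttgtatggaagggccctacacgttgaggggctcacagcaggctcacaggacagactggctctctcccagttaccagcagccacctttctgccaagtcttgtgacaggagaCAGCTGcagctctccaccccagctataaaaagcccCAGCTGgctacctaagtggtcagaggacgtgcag
Cox8a: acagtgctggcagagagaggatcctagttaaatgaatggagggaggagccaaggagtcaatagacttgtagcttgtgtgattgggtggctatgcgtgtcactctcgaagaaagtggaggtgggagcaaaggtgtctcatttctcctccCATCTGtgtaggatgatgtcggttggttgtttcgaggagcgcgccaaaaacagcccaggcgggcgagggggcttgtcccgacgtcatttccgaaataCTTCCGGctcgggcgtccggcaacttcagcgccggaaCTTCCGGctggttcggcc
*Cox7a1* held 1 E-box and *Cox8b* held 2, the same letters CAGCTG, and neither held an ETS core. *Cox7a2* held 1 E-box and no ETS core, and *Cox8a* 1 E-box and 2 ETS cores. Both strands were searched, and a match is only a run of letters. RefSeq promoters were matched for 70 of the 89 members, 75 promoters in all, and *Cox6a2* has no entry in that table. The ETS core was in 22.7% of the members' promoters, the YY1 core (AAGATGG) in 14.7% and the core site of estrogen-related receptors (AAGGTCA) in 10.7%. Over all 32851 promoters of the same length these shares were 8.86%, 6.34% and 4.72%. E-boxes were in 68% of members' promoters and 72.3% of all, and a MEF2 motif in 0% and 0.557%. The marked motifs do not overlap each other in these sequences, and the shares are descriptions without a test.

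To remove library scale, each muscle isoform was divided by its partner within the library. The log2 ratio of *Cox8b* to *Cox8a* was 0.96, 0.00, -0.04 and 1.04 in Con+Veh and 2.92, 2.29, 2.76 and 1.60 in STZ-HFD, a difference of 1.90. That of *Cox7a1* to *Cox7a2* was 0.03, 0.87, 0.96 and 1.10 in Con+Veh and 3.47, 1.88, 1.52 and 1.78 in STZ-HFD, a difference of 1.42. Neither ratio overlapped between groups, which gives the smallest p that 4 against 4 allows (two-sided exact permutation test, p = 0.0286 for both), but over the 6 ratios tested the adjusted values were 0.0857 and did not pass. The ratio of *Cox6a2* to *Cox6a1* differed by -0.06 (exact permutation p = 0.886).

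The same ratios in the db cohort went the other way or overlapped. For *Cox7a1* to *Cox7a2* the log2 ratio was 0.49, 1.02 and 0.77 in db/+ and 0.01, -0.26 and -0.47 in db/db, lower in every db/db library, with a difference of -0.999 (exact permutation p = 0.1, the smallest that 3 against 3 allows, adjusted p = 0.2). For *Cox8b* to *Cox8a* the difference was -0.32 (exact permutation p = 0.6, adjusted 0.72), and for *Cox6a2* to *Cox6a1* it was 0.38 (exact permutation p = 0.4, adjusted 0.6). By gene, *Cox7a1* had 31.8, 32.7 and 20.0 CPM in db/+ and 29.7, 16.5 and 17.5 CPM in db/db (-0.46 ± 0.27, limma adjusted p = 0.333), *Cox8b* had a log2 fold change of 0.38 ± 0.40 and *Cox6a2* of 0.07 ± 0.35. None of the 3 was called in db/db by limma, and 0 of 3 had an unadjusted p under 0.05.

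Per length of all annotated exons, the muscle forms were the larger part of both pairs in every library of the STZ-HFD cohort. This length counts the exons of every annotated transcript, so it only approximates that of the transcripts expressed. It was 535 bases for *Cox7a1* and 944 for *Cox7a2*, and 360 for *Cox8b* and 619 for *Cox8a*. *Cox8b* made up 77.1, 63.3, 62.6 and 77.9% of the *Cox8b* and *Cox8a* level in Con+Veh and 92.9, 89.4, 92.1 and 83.9% in STZ-HFD. *Cox7a1* made up 64.4, 76.3, 77.5 and 79.1% of its pair in Con+Veh and 95.1, 86.6, 83.5 and 85.9% in STZ-HFD. Among the tested complex IV genes, *Cox6a2* had the highest mean level per kilobase in db/+ (139 ± 42.8 CPM per kb, SD, n=3) and in STZ-HFD (485 ± 243, SD, n=4). In the db cohort, *Cox8b* made up 43.1 to 65.4% in db/+ and 42.5 to 58.7% in db/db. *Cox7a1* made up 71.3, 78.2 and 75.1% of its pair in db/+ and 64.0, 59.6 and 56.0% in db/db, lower in every db/db library. In db/+ *Cox6a2* did not differ beyond its spread from *Cox6a1*, the next in order (138 ± 49.0), while in STZ-HFD *Cox7a1* (309 ± 54.3) followed it within 1 SD and *Cox8b* was the third (239 ± 122).

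**Figure D3:**
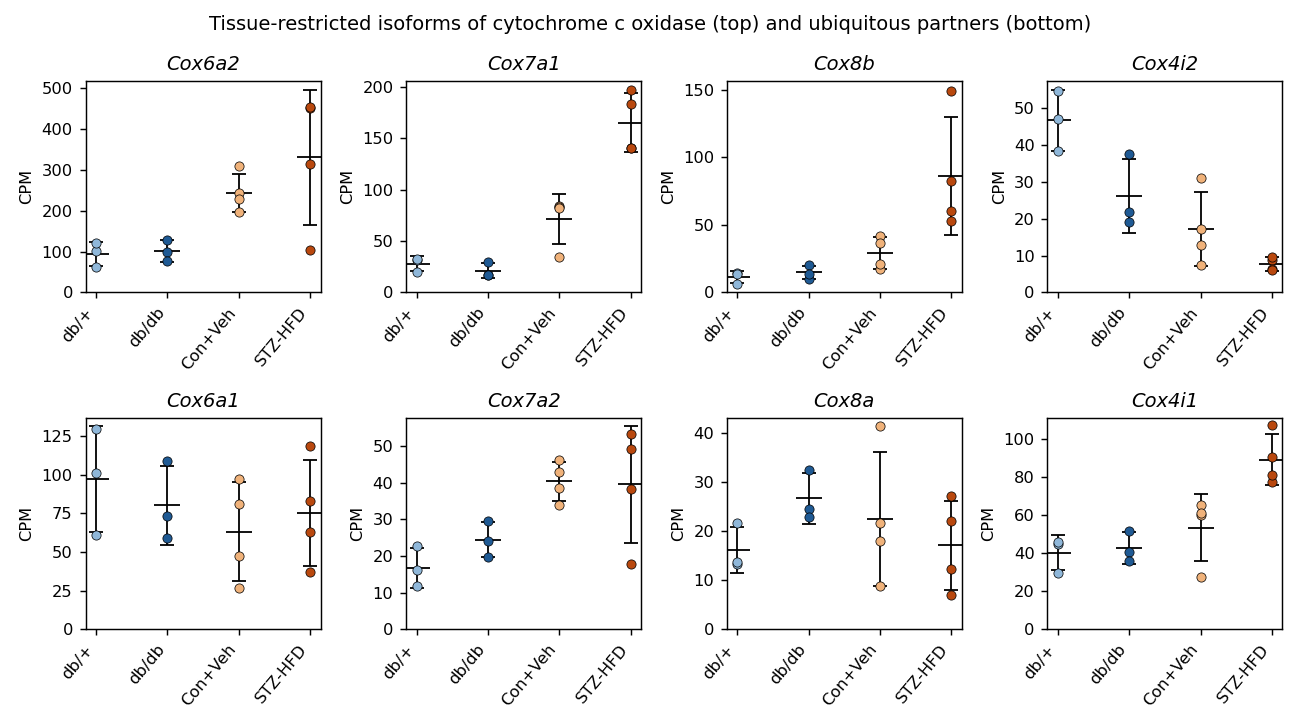
CPM of the muscle isoforms Cox6a2, Cox7a1 and Cox8b and of Cox4i2 (top row) and of their ubiquitous counterparts (bottom row) in each library (points), with the group mean and SD (bars). Cox7a1, Cox8b and the ubiquitous Cox4i1 are higher in all 4 STZ-HFD libraries than in any Con+Veh library. For Cox6a2, Cox4i2, Cox6a1, Cox7a2 and Cox8a these groups overlap.

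Of the 2 other restricted isoforms that were tested, 1 was called lower in STZ-HFD IVDs. *Cox4i2* (ENSMUSG00000009876, chromosome 2 from 152754173 to 152765037), the form of subunit 4 known from lung and from hypoxic cells, had 7.53, 12.9, 17.3 and 31.0 CPM in Con+Veh and 8.76, 6.22, 6.06 and 9.69 CPM in STZ-HFD. Its call (log2 fold change -1.35 ± 0.34, limma adjusted p = 0.0354) came with groups that overlapped through Con+Veh replicate 1. In the db cohort it had 38.2, 54.6 and 46.9 CPM in db/+ and 21.8, 19.0 and 37.5 CPM in db/db, which do not overlap (-0.89 ± 0.32, limma adjusted p = 0.133). *Ndufa4l2*, a hypoxia-induced relative of *Ndufa4*, had 26.4, 55.0, 56.4 and 49.9 CPM in Con+Veh and 12.95, 18.4, 22.98 and 38.2 CPM in STZ-HFD (-1.03 ± 0.33, limma adjusted p = 0.0999). Its db values were 81.4, 139 and 108 CPM in db/+ and 46.2, 42.1 and 140.5 CPM in db/db (-0.73 ± 0.40, limma adjusted p = 0.304). *Cox6b2*, a testis form, had 319 counts over all libraries and *Cox7b2* 32, and *Cox8c* was listed at 0 in all 14. *Cox5b-ps*, a copy of *Cox5b* that the count table annotates as protein-coding, had 1.11, 3.66, 3.71 and 3.26 CPM in Con+Veh and 5.1, 6.02, 8.73 and 8.03 CPM in STZ-HFD (1.21 ± 0.33, limma adjusted p = 0.0509), beside 0.96 ± 0.22 for *Cox5b* itself.

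The difference between the models was tested as a contrast of the 2 log2 fold changes. It was called for 1 of 85 members, *Cox7a1*, at 1.47 ± 0.36 (STZ-HFD minus db/db; limma adjusted p = 0.0453), against 0.952% of all genes called in this direction and 0.816% in the other. For *Cox8b* the difference was 1.44 ± 0.53 and did not pass (limma adjusted p = 0.167). The difference was above 0 for 66 of the 85 members, with a median of 0.40, whereas 48.5% of all genes lay above 0.

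Skeletal muscle markers went with most members in STZ-HFD and against most of them in db/db. Of 13 such markers, 6 were called higher in STZ-HFD (*Acta1*, *Myh1*, *Myh2*, *Tnni2*, *Pvalb*, *Tcap*). All 13 had a log2 fold change above 0 there, with a median of 1.10. In db/db, where 58 of 85 members lay above 0, 0 of the 13 markers did (median -0.96), and 2 were called lower (*Myh1*, *Tcap*). The summed level of the 13 markers was 13296, 11903, 9913 and 12155 CPM in Con+Veh and 10875, 25522, 28524 and 24840.1 CPM in STZ-HFD. STZ-HFD replicate 1 thus lay within the control range, and it was also the treated library with the lowest sum of the 3 muscle isoforms, 352 CPM, within the control range of 295 to 428 CPM. In the same library *Cox7a1* was at its highest, while *Cox6a2* and *Cox8b* were at their lowest among the treated libraries. This library had the fewest counts of all, 16076908, and the lowest quality weight of the treated libraries, 0.379. Its TMM factor was 1.58, against 0.693 to 0.742 in the other treated libraries. Of 7 slow or cardiac muscle markers, 3 were called higher (*Myh7*, *Myl3*, *Tnnt1*), with sums of 557 to 1048 CPM in Con+Veh and 1112 to 2356 CPM in STZ-HFD. With a skeletal muscle marker score as a covariate, limma called 0 members in STZ-HFD (5 higher and 5 lower at an unadjusted p under 0.05) and their median was 0.24, with 56 of 85 above 0. *Cox8b* then stood at 0.57 and *Cox7a1* at 0.51, while *Cox6a2* turned to -0.43. The part of muscle RNA in these results was not tested.

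**Figure D4:**
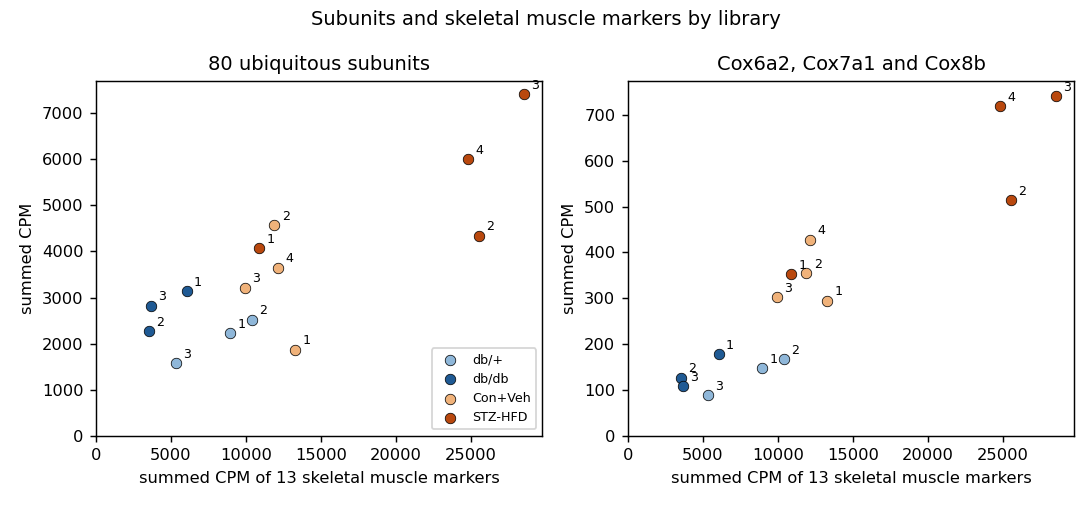
Summed CPM of the ubiquitous subunits (left) and of the 3 muscle isoforms (right) against the summed CPM of 13 skeletal muscle markers, 1 point per library, numbered by replicate. STZ-HFD replicates 2, 3 and 4 lie apart at the highest marker sums, and STZ-HFD replicate 1 lies among the Con+Veh libraries on the marker axis.

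In the db cohort the skeletal muscle sum was 8966, 10417 and 5357 CPM in db/+ and 6050.1, 3516 and 3644 CPM in db/db, lower in 2 db/db libraries and overlapping in the other. White adipocyte markers were higher, with 4 of 6 called (*Adipoq*, *Plin1*, *Fabp4*, *Retn*). The adipocyte sum was 121, 80.2 and 85.8 CPM in db/+ and 308, 435 and 248 CPM in db/db, and it was 177 to 365 CPM in Con+Veh and 297 to 515 CPM in STZ-HFD. With the adipocyte score as a covariate, limma called 0 members in db/db, 33 of 85 lay above 0 and the median turned to -0.14. With the muscle score it rose to 0.82, and 5 members were called. Brown adipocyte markers, whose cells also express *Cox7a1* and *Cox8b*, summed to at most 8.22 CPM in any library. These low sums were 0.517 to 3.1 CPM in Con+Veh and 1.93 to 8.22 CPM in STZ-HFD. The highest was in STZ-HFD replicate 1. There *Cox7a1* was also at its highest, whereas *Cox8b*, at 52.5 CPM, was at its lowest among the treated libraries. Of this list, 2 of 2 tested markers lay above 0 in STZ-HFD (median 2.22), against 0 in db/db (median -0.46). Limma called 0 of them in either model. Disc and cartilage markers fell in STZ-HFD (3 of 5 called lower, *Acan*, *Col2a1* and *Sox9*). So did *Fmod* and *Mkx* of 5 annulus and tendon markers and *Cd68* of 4 macrophage markers. In db/db, limma called 0 of the 5 disc and cartilage markers, of which 1 lay above 0 (median -0.57). Their sums overlapped, at 12188, 15098 and 22516 CPM in db/+ and 4588, 8885 and 12593.5 CPM in db/db. For erythroid markers 0 of 5, and for tested nucleus pulposus markers 0 of 4, were called by limma in either model. The part of these cell types in the results was not tested.

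GC content of the transcripts also ran with the db/db values. Over the 85 members, Spearman's rho between GC content and log2 fold change was -0.58 in db/db and -0.30 in STZ-HFD, and over 16899 genes with a GC content it was -0.43 and -0.08. These correlations are across genes, which share libraries and are not independent. In db/db, the 43 members with lower GC content had a median of 0.50 and the 42 with higher GC content -0.04, whereas in STZ-HFD the medians were 0.92 and 0.67. With the GC trend of each library removed, the db/db median was 0.35, with 61 of 85 above 0 and 1 called member, and the STZ-HFD median 0.78, with 78 above 0.

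**Figure D5:**
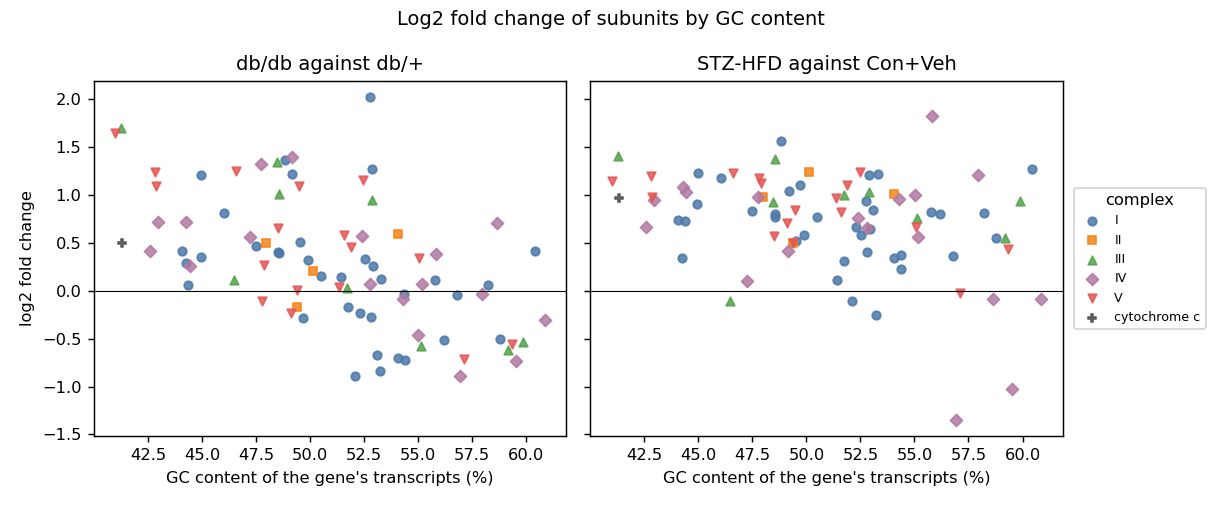
Log2 fold change of the 85 tested members against the GC content of their transcripts, by complex (symbols), for db/db against db/+ (left) and STZ-HFD against Con+Veh (right). Members of low GC content hold the highest db/db values of complexes III and V (Uqcrb and Atp5l). Those of complexes I and II (Ndufb1-ps and Sdhb) lie above the members' median GC content of 51.6%. In STZ-HFD, values above 0 span the whole range of GC content.

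Genes that make or serve the chain were counted by list. Of all genes tested, 1.3% were called higher and 1.31% lower in STZ-HFD, and 1.23% and 0.432% in db/db. Of 12 tested subunits encoded in the mitochondrial genome, limma called 0 in either model, with medians of 0.74 in db/db and 0.50 in STZ-HFD, from a summed level of 6684 to 57516 CPM between libraries. Among 14 assembly factors of complex I, *Ndufaf5* was called higher in STZ-HFD (1.23 ± 0.33, limma adjusted p = 0.0467) and 0 in db/db, with STZ-HFD medians of 0.22 for this list. For the 26 tested assembly factors of complexes II to V, limma called 0 in either model, and the STZ-HFD medians were 0.61, 0.16, 0.36 and 0.48 in that order. Of 11 regulators of mitochondrial genes, 2 were called higher in STZ-HFD, *Perm1*, a muscle regulator of oxidative genes (1.28 ± 0.28, limma adjusted p = 0.0208), and *Esrrg*, an estrogen-related receptor (1.22 ± 0.30, limma adjusted p = 0.0321). The coactivator *Ppargc1a* had 0.94 ± 0.25 (limma adjusted p = 0.0502) and *Tfam*, a factor for the mitochondrial genome, 0.36 ± 0.27. In db/db, limma called 0 of the 11 regulators, where *Tfam* had 0.90 ± 0.28 (limma adjusted p = 0.0944) and *Ppargc1a* 0.21 ± 0.30.

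Some counts are shared with other genes. Pseudogenes with at least 90% identity over at least 200 bases were annotated for 31 of the 89 members, and for *Atp5l*, *Ndufs5* and *Atp5g2* they held 27.5%, 24.1% and 14.1% of the counts of gene and copies together. Another gene overlapped 40 members, 32 of them on the opposite strand, and for 19 members that gene had more than 10% of the member's counts. Among these were *Ndufb2* (with *Braf*), *Ndufb5* (*Mrpl47*), *Atp5pb* (*Wdr77*), *Cox4i1* (*Emc8*) and *Ndufa4l2* (*Shmt2*), whose values are therefore uncertain where counting did not use the strand.

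By CPM alone, 11 of 85 members separated the STZ-HFD and Con+Veh libraries completely in the higher direction and 0 in the lower, against 1.97% and 2.77% of all genes. In db/db, 24 separated higher and 3 lower, against 14.1% and 11.7% of all genes. The limma fit weighted each library by its quality, and weights ran from 0.275 for Con+Veh replicate 1 to 3.05 for Con+Veh replicate 3. Without weights limma called 0 members in STZ-HFD (43 higher at an unadjusted p under 0.05, median 0.79, 76 of 85 above 0). The calls dropped to 0 without Con+Veh replicate 3, Con+Veh replicate 4 or STZ-HFD replicate 3, to 1 without STZ-HFD replicate 4, and rose to 25 without STZ-HFD replicate 1 or 2 and to 22 without Con+Veh replicate 2. For db/db, 0 members were called without any 1 of its 6 libraries, and 8 to 10 without Con+Veh replicate 2 or STZ-HFD replicate 2 or 3, which share the fit but not the comparison.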

How the data were processed

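Members and gene lists were chosen with earlier results of these data known. The gene file holds raw counts per Ensembl gene, made by the authors with STAR and featureCounts against GRCm38 (Ensembl release 101) from amplified total RNA; 287 of its 55774 lines repeat another line and were dropped. The deposited transcript file holds expected counts from Salmon, whose rounded gene totals served 1 alternative only. Tool names are from the submitters' processing notes and the methods. Each library is 1 mouse, 14 in all. Counts totalled 16076908 to 58943169 per library, which leaves counting error small beside the spread between mice for all but genes near 1 CPM.

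TMM factors were set with edgeR 4.0.16, 3 or more libraries had to exceed a CPM of 1, and limma 3.58.1 (R 4.3.3) fitted voom with quality weights over all 14 libraries with a mean per group, Benjamini-Hochberg adjustment over 16915 genes and a minimum absolute log2 fold change of 1. Fold changes are printed with their SE. Log2 ratios of isoform pairs (prior count 2) were compared by exact permutation, two-sided, with adjustment over the 6 tests. The scripts were tested on simulated counts. Named members were the isoform pairs, restricted isoforms, up to 12 called members per model by smallest p, and the highest and lowest of each complex; *Ndufb8*, *Uqcrfs1*, *Atp5g3*, *Sdha*, *Cycs* and *Cox5b*, and *Ndufb5* and *Cox7a1* in db/db, were added after their values were seen. 1 named member is not reported here. Gene positions and lengths are from GENCODE M21 (GRCm38), pseudogene copies from blastn 2.17.0. The alternatives tried were DESeq2 1.42.0, edgeR's quasi-likelihood test, no quality weights, RLE size factors, 2 other filters, separate fits, a replicate block, marker scores, GC trend and ribosomal RNA removal, adjusted p without a minimum fold, transcript totals, another prior count (0.5) and leaving out libraries.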

Additional observations from a re-analysis of the deposited data

Results flagged for a closer look

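In Con+Veh replicate 1, 4 members lay far below the other 3 control libraries by Dixon's criterion for groups of 4. *Cox7a1* had 34.59 CPM there against 82.67 to 84.56 CPM in the others, *Cox4i1* 27.28 against 59.71 to 65.14 CPM, *Ndufa4l2* 26.35 against 49.92 to 56.35 CPM, and *Cox5b-ps* 1.114 against 3.259 to 3.713 CPM. These were 4 of 66 groups of 4 examined, and chance gives about 1 in 20. The same library had the lowest quality weight in limma, 0.275, and the lowest summed level of each complex among the controls, whereas its skeletal muscle markers summed to 13296 CPM, the highest of the 4 controls. The part of library quality in these values was not tested. Without this library, limma called 17 members higher in STZ-HFD and 1 lower, with *Cox7a1* still called in the difference.

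*Cox7a1* was also singled out because its response differed between the models by 1.469 on the log2 scale (STZ-HFD minus db/db; limma adjusted p = 0.0453), higher in 4 of 4 STZ-HFD libraries than in any control while the db/db and db/+ libraries overlapped. edgeR's quasi-likelihood test and limma without quality weights did not call this difference.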

How the results depend on the processing

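Counts of called members moved with nearly every choice. For members called higher in db/db (3 by limma), the count was 0 with edgeR's quasi-likelihood test, limma without quality weights and the white adipocyte score as covariate, 1 with the GC trend removed, 5 with RLE size factors and the skeletal muscle score as covariate, 8 with Con+Veh replicate 2 and STZ-HFD replicate 4 left out (library names ending in RIP), 14 with each model fitted alone, 16 with the replicate block. For members called higher in STZ-HFD (15), it was 0 with edgeR's quasi-likelihood test, limma without quality weights, the replicate block, the skeletal muscle score as covariate, the white adipocyte score as covariate and gene totals from the transcript table, 1 with no filter on low counts and Con+Veh replicate 2 and STZ-HFD replicate 4 left out (library names ending in RIP), 5 with edgeR's filter, 6 with DESeq2, 7 with each model fitted alone. At an unadjusted p under 0.05 the STZ-HFD fits that called 0 still had more members higher than lower, except with the skeletal muscle score (5 and 5). *Cox4i2*, the 1 member called lower in STZ-HFD, and *Cox7a1*, the 1 whose response was called different between the models, both gave counts of 0 with edgeR's quasi-likelihood test, limma without quality weights, no filter, edgeR's filter, the replicate block, either marker score, without the RIP libraries and with transcript totals. *Cox4i2* was also lost with DESeq2 and with each model fitted alone, and *Cox7a1* with the GC trend or ribosomal RNA genes removed. The causes were not tested. Without single libraries, the count ranged from 0 to 10 higher in db/db, 0 to 25 higher and 0 to 2 lower in STZ-HFD and 0 to 2 in the difference, and stayed at 0 lower in db/db and 0 lower in the difference. *Cox4i2* was lost without Con+Veh replicate 3 or 4 or STZ-HFD replicate 2, 3 or 4, and *Cox7a1* kept its difference without db/db replicate 1, db/+ replicate 3, Con+Veh replicate 1 or STZ-HFD replicate 1. Where a group was left with fewer libraries, its spread was shared with the other groups. The log2 ratio of *Cox7a1* to *Cox7a2* in STZ-HFD was 1.05 with transcript totals (exact permutation p = 0.0857) and ranged from 0.98 to 1.64 without single libraries, and that of *Cox8b* to *Cox8a* from 1.73 to 2.17. In db/db these ratios ranged from -1.13 to -0.87 and from -0.62 to 0.0381, and *Cox6a2* to *Cox6a1* from 0.15 to 0.81 in db/db and from -0.33 to 0.31 in STZ-HFD. The labels do not say whether replicate numbers pair the samples. The mean correlation of same-numbered libraries was -0.09 in the db cohort (from -0.28 to 0.19) and -0.11 in the STZ-HFD cohort (from -0.26 to -0.04). So few libraries cannot exclude a pairing, and the replicate block (16 and 0 members called higher) is an alternative only. Among named members, none of which was called in the alternative, the log2 fold change turned its sign as follows. With edgeR's quasi-likelihood test in STZ-HFD *Cox6a1* (0.26), *Cox7a2* (-0.027) and *Uqcrc2* (0.034) changed sign. With DESeq2 in STZ-HFD *Cox6a1* (0.28), *Cox7a2* (-0.012) and *Uqcrc2* (0.051) changed sign. With limma without quality weights in db/db *Cox5b-ps* (0.035) and in STZ-HFD *Cox6a1* (0.29) and *Cox7a2* (-0.13) changed sign. With no filter on low counts in STZ-HFD *Cox6a1* (0.24), *Ndufs5* (0.065), *Ndufv3* (0.0052) and *Uqcrc2* (0.12) changed sign. With the replicate block in db/db *Cox5b-ps* (0.068) and in STZ-HFD *Cox8a* (0.055) and *Ndufs5* (0.024) changed sign. With the skeletal muscle score as covariate in db/db *Cox6a1* (0.36), *Cox7a1* (0.033), *Sdhd* (0.88) and *Cox5b-ps* (0.81) and in STZ-HFD *Cox6a2* (-0.43), *Cox7a2* (-0.58), *Ndufb1-ps* (-0.067), *Sdhb* (-0.13), *Sdhd* (-0.60) and *Uqcr11* (-0.079) changed sign. With the white adipocyte score as covariate in db/db *Cox6a2* (-0.072), *Cox7a2* (-0.094), *Cox8a* (-3.77e-06), *Cox4i1* (-0.49), *Ndufa4* (-0.53) and *Uqcrc2* (-0.19) and in STZ-HFD *Cox7a2* (-0.19) and *Sdhd* (-0.038) changed sign. With the GC trend removed in db/db *Cox6a1* (0.19) and *Cox5b-ps* (0.40) and in STZ-HFD *Cox6a1* (0.084) changed sign. With Con+Veh replicate 2 and STZ-HFD replicate 4 left out (library names ending in RIP) in STZ-HFD *Cox7a2* (-0.077) changed sign. With gene totals from the transcript table in db/db *Cox4i2* (1.10) and *Ndufa4l2* (0.57) and in STZ-HFD *Cox4i2* (1.42), *Ndufv3* (0.93) and *Uqcrc2* (0.49) changed sign. Without single libraries the sign also depended on the library in db/db for *Cox6a2* from -0.15 to 0.31, *Cox4i1* from -0.11 to 0.22, *Sdhd* from -0.60 to 0.21, *Uqcrc2* from -0.31 to 0.38 and *Cox5b-ps* from -0.42 to 0.32, and in STZ-HFD for *Cox6a1* from -0.26 to 0.16, *Cox7a2* from -0.099 to 0.23, *Cox8a* from -0.45 to 0.093, *Cox7a2l* from -0.020 to 0.56, *Ndufs5* from -0.56 to 0.33, *Atp5g2* from -0.44 to 0.18 and *Uqcrc2* from -0.28 to 0.037. The transcript table held 1 of 2 protein-coding transcripts of *Cox4i2*, 0 of 1 of *Ndufa4l2* and 1 of 3 of *Ndufv3*, and depth limits the values of genes near 1 CPM such as *Ndufb1-ps*.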
